A study of Mus musculus with 32 samples.

Results

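Lung and spleen of untreated mice were compared by RNA-seq, in the 4 libraries that the sample labels give as control for these organs (2 of lung and 2 of spleen) out of 32 samples in the series. The series profiled kidney, liver, lung and spleen for cisplatin damage, for excision repair and for RNA, and the control animals were the reference for the RNA response. All mice were wild-type C57BL/6J females aged 6 to 7 months. The controls received saline (154 mM) by intraperitoneal injection at ZT1, that is 1 h after lights on, and organs were taken at ZT5, whereas the labels give 2 h after treatment. The treated mice, used here to see whether the organ difference recurs, received cisplatin at 10 mg per kg at the same time. Whole organs were extracted, and the sources do not tie a library to a single animal.

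Lung is a gas exchange surface. Its airways are lined by secretory club cells and by ciliated cells, its alveoli by flat type 1 cells and by type 2 cells that make surfactant, and a dense capillary bed lies beneath them. Spleen filters blood: its red pulp holds macrophages that take up old red cells and recycle their iron and, in the mouse, sites of red cell formation, and its white pulp holds B-cell follicles and T-cell zones.

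Reads assigned to genes numbered 27662355 and 77013005 in the lung controls and 38719220 and 84864189 in the spleen controls. Within each control pair the libraries were almost as alike as repeated draws of reads would be, with a dispersion index (the variance between libraries over that expected from counting) of 2.747 in lung and 2.984 in spleen against 39.3 to 349 in the other RNA-seq pairs, so they may each be 1 library sequenced again, and each pair was summed and counted as 1 sample. The spread for the test therefore came from the other 6 groups of RNA-seq samples, and the summed samples were assumed to vary as those groups did. A note with the series says that control and cisplatin were exchanged for lung and spleen and later corrected, and the corrected labels were used. Under them Cdkn1a, the cell cycle inhibitor p21 that responds to DNA damage, was higher in the treated libraries of both organs. Levels are in RPKM (reads scaled to the length of a gene's exons and to all reads on genes). Cdkn1a was at 42.2 and 40.3 in the lung controls and 141 and 165 in lung after cisplatin. In spleen it was at 3.72 and 3.75 in control and 11.1 and 9.61 after cisplatin. The list for this check also held Per1, Ccng1, Phlda3 and Mdm2. Per1 was higher in the treated libraries of both organs. Ccng1 was higher in treated lung and Phlda3 in treated spleen, while each overlapped in the other organ. Mdm2 was higher in treated lung, but in spleen it was at 21.1 and 21.9 in control and 18.6 and 20.1 after cisplatin.

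The organ labels matched their defining markers. Sftpc, the surfactant protein of alveolar type 2 cells, was at 14165 and 13842 RPKM in the lung controls and at 1.05 and 1.03 in the spleen controls. Ms4a1, the B-cell surface protein CD20, was at 14.7 and 15.4 RPKM in lung and at 147 and 152 in spleen. Transcripts of other organs were also present at a low level. The summed level of 7 liver genes (Alb, Apoa1, Apoa2, Ttr, Fgb, Ahsg and Cps1, chosen after their values were seen) was 116 and 77.0 CPM (reads scaled to all reads on genes, without length) in the lung controls and 39.3 and 14.1 in the spleen controls, against 91003 to 154111 in liver. Likewise 5 kidney genes (Kap, Miox, Slc34a1, Umod and Slc12a1) summed to 65.1 and 62.0 CPM in the lung controls and to 13.5 and 0.601 in the spleen controls, against 21604 to 24487 in kidney. None of these 12 genes passed the test between lung and spleen. Among the genes that did pass, 16 that were higher in lung and 0 that were higher in spleen lay under 0.5% of their level in liver or kidney controls.

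Of 16219 genes with enough reads, 2980 were higher in lung (18.4% of those tested) and 1957 were higher in spleen (12.1%), 30.4% in either direction, by edgeR's quasi-likelihood test of a log2 difference beyond 0.4 in size at a Benjamini-Hochberg adjusted p under 0.05. All log2 differences below are lung minus spleen from that fit, a gene is called higher only when it passed that test, and a standard error (SE) follows the ± sign. A gene entered the test with 0.5 CPM or more in either organ, so one that is silent in the other organ entered through its higher side alone, and the counts and medians of gene lists below describe their tested members. A gene that did not pass may still differ. In simulated counts of the same design, the test called 26% of genes given a log2 difference of 2. In bulk organs, fewer cells of a type and less RNA per cell cannot be told apart. The lung-high genes differed by a median of 3.41 on the log2 scale (10.65-fold), and 156 of them had no read in either spleen control. The spleen-high genes differed by a median of 2.35 (5.112-fold), and 22 of them had no read in either lung control. Fitted differences were 32-fold or more in 880 lung-high and 108 spleen-high genes, and 1024-fold or more in 134 and 6. With the genes that had no read in the lower organ set at a lower bound, taken against 3 reads over its summed pair, these counts were 848 and 98, and 79 and 1, and the medians stayed at 3.41 and 2.35. A level of at least 10 RPKM in one organ with under 0.1 RPKM in the other was held by 101 lung-high and 6 spleen-high genes. The median over all tested genes was −0.17, and −0.01 with the size factors of DESeq2 in place of edgeR's scaling, so values near that shift carry no direction.

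The 12 protein-coding genes with the largest difference toward lung, among those at 10 RPKM or more and also called after cisplatin, were for the most part genes of airway and alveolar epithelium. They were ordered by the fitted difference, and 6 of them had no read in spleen, so that their place among the 12 depends on the fit. Scgb1a1 (chr19:9083636-9087958 of GRCm38, minus strand), the main secreted protein of club cells, took 4.48% and 4.55% of all lung reads on genes and stood at 94070 and 95646 RPKM in lung against 7.05 and 6.24 in spleen. Its log2 difference was 13.77 ± 1.72 (13966-fold, adjusted p = 0.000286). Lung and spleen libraries did not come near each other for this gene.

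Its low spleen level and that of Sftpc, also among the 12, resembled what organs without airways gave. In CPM, Scgb1a1 was at 3.36 and 2.97 in the spleen controls and at 2.43 to 16.1 in the 8 liver and kidney libraries. For Sftpc the spleen controls held 1.08 and 1.06 CPM and the liver and kidney libraries 0.989 to 6.48. The folds of these 2 genes therefore rest on a spleen level within the range of other organs. Sftpb, named below, was at 0.439 and 0.165 CPM in the spleen controls and at 0.247 to 0.745 in the liver and kidney libraries. Sftpa1, also named below, was at 0.31 and 0.236 against 0.412 to 6.34. The source of such reads was not tested.

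Cxcl15 (lungkine), a chemokine of the lung epithelium, was at 681 and 691 RPKM in lung and at 0.0486 and 0.0443 in spleen, a log2 difference of 13.78 ± 0.80. Bpifa1 and Bpifb1, secreted host defence proteins of the upper airway, were at 1174 and 1163 and at 85.9 and 82.5 RPKM in lung. In spleen Bpifa1 was at 0.1 and 0.0763, while Bpifb1 had 2 reads and 0 reads, so that its ratio of 18640 carries an exact 95% interval of 5160 to 153922 for counting error only. Cldn18, the claudin of alveolar tight junctions, was at 214 and 213 RPKM in lung and at 0.0290 and 0.00529 in spleen.

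The others of this group had no read in spleen and so give only lower bounds, set against 3 reads over the summed pair and covering counting error only. Sfta2, a secreted protein of the surfactant gene family, was at 32.5 and 29.7 RPKM in lung, at least 1360-fold higher. Tmem212 was at 57.4 and 53.1 RPKM (at least 1600-fold), and 2310007B03Rik at 21.7 and 22.0 (at least 2140-fold). The cilia genes Cfap206 and Fam183b and the less described Fam216b were at least 1530-fold, 1297-fold and 1235-fold higher. Under DESeq2 Tmem212 and Fam216b no longer passed.

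Genes of red cells, spleen patterning and red pulp were prominent among the 12 with the largest difference toward spleen. Tlx1 (chr19:45150680-45156943, plus strand), the homeobox factor without which a spleen does not form, had no read in either lung control and 12.2 and 12.7 RPKM in spleen, at least 937-fold higher. Coch (cochlin, a secreted extracellular protein) was at 0.663 and 0.654 RPKM in lung and at 284 and 291 in spleen, with a log2 difference of −8.85 ± 0.69 and an adjusted p of 2.39e-05. No other gene of the group reached such a level in spleen.

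Several of these genes belong to the red cell. Car1, a carbonic anhydrase of red cells, was at 0.145 and 0.146 RPKM in lung and at 97.7 and 104 in spleen (log2 difference −9.51 ± 1.34). Rhag and Rhd, subunits of the Rhesus complex of the red cell membrane, were at 0.0309 and 0.0333 and at 0.204 and 0.179 RPKM in lung against 13.1 and 14.4 and 20.4 and 20.5 in spleen. Klf1, the master transcription factor of red cell genes, was at 0.0709 and 0.110 in lung and at 16.6 and 17.7 in spleen. Hemgn, a nuclear protein of blood progenitors, and Ermap, an erythroid membrane protein, differed by −6.90 ± 1.38 and −7.24 ± 1.31. In each of these genes all spleen values lay far above all lung values, as the choice by size implies.

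The rest were Ccr3, the eotaxin receptor, at 24.3 and 26.1 RPKM in spleen and 0.0221 and 0.0476 in lung (log2 difference −9.33 ± 1.11), Itgad, an integrin of red pulp macrophages (−7.14 ± 1.34), Elane, neutrophil elastase (−6.44 ± 1.4), and Nkx2-3, a homeobox factor of spleen stroma (−7.12 ± 1.16). Of these, Elane and Nkx2-3 no longer passed under DESeq2. Some 19.7% of the exon sequence of Itgad overlaps another gene, and the library kit kept no strand, so its reads cannot be fully told apart from that neighbour's. The same holds below for Hopx (27.2%), Ftl1 (34.6%), Sox17 (16.8%), Alas2 (15.5%), Ckm (15.5%), Lef1 (13.7%), Cyp2f2 (13.5%) and Plet1 (13.4%).

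**Figure D1:**
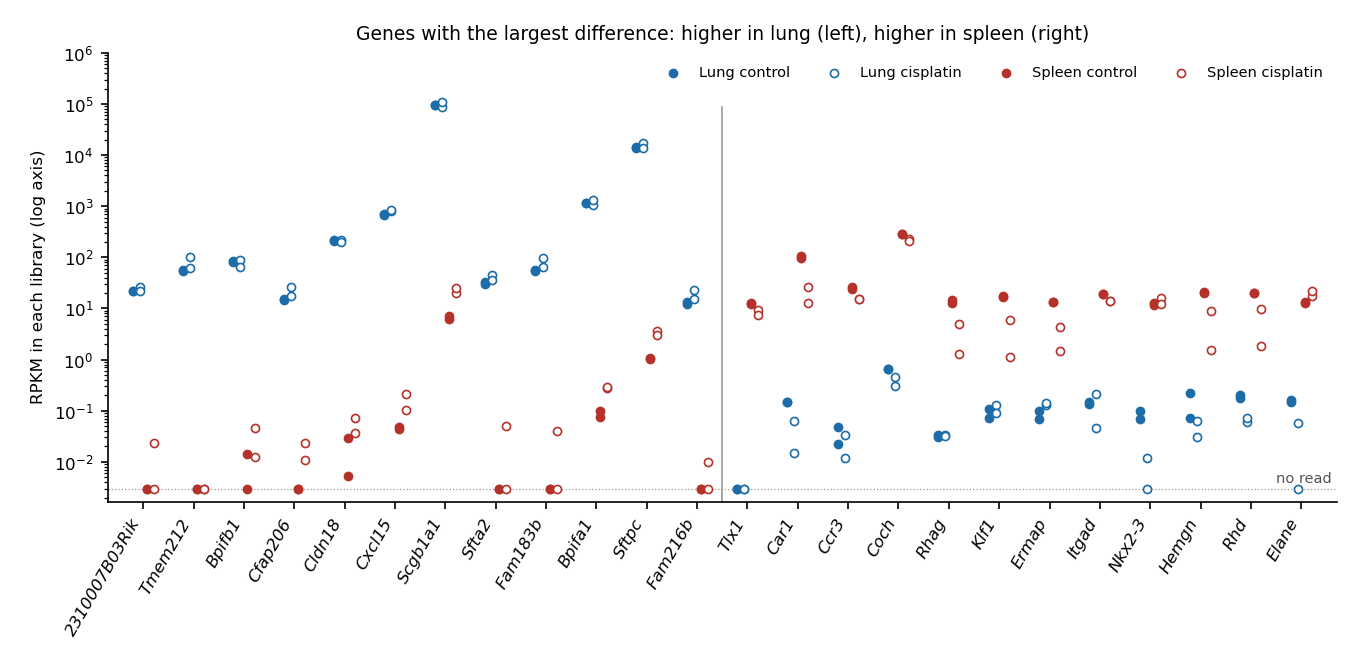
RPKM on a log axis in each of the 8 lung and spleen libraries (blue lung, red spleen, filled control, open cisplatin) for the 12 genes with the largest difference in each direction; libraries with no read sit on the dotted line. Scgb1a1 stands at 94070 and 95646 RPKM in the lung controls and Coch at 284 and 291 in the spleen controls. In all 24 genes the control libraries of the organs are separate, which follows from how the genes were chosen.

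Promoters of 3 genes of lung epithelium and 3 genes of spleen are shown as examples. These transcripts did not exceed 0.223 RPKM in either control library of the other organ. Other genes named here also met that level. Each window runs from 250 bases before to 50 bases after the RefSeq start of transcription on GRCm38.p6 and is written along the gene's own strand. Capitals mark matches, on either strand, to 7 motifs, whose share was counted over the same window of 27025 RefSeq promoters. The TATA box was searched as TATAAA and was present in 14.2% of those promoters. For factors of the lung, the core letters bound by NKX2 proteins (CTCAAG) were present in 16.2%, and those of forkhead proteins (TGTTTAC) in 3.52%. For blood cells, the letters of KLF factors (CCACCC) were present in 30.8%, those of GATA factors (AGATAA) in 11.4%, those of PU.1 (GAGGAA) in 28.3% and the octamer (TTTGCAT) in 4.6%. A match is a string of letters and not a shown binding site, and the absence of one speaks of this window only.
Sftpb: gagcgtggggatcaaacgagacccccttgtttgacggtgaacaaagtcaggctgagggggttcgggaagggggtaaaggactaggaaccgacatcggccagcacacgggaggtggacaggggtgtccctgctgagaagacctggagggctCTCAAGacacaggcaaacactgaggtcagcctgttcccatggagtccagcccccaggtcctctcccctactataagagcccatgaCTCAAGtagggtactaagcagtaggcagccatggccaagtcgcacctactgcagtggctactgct
Sftpa1: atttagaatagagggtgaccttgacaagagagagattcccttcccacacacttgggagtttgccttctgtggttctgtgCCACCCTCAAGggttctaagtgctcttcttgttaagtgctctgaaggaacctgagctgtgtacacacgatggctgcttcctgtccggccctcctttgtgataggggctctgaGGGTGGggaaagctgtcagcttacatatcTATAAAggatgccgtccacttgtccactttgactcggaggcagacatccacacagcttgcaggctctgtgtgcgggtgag
Cxcl15: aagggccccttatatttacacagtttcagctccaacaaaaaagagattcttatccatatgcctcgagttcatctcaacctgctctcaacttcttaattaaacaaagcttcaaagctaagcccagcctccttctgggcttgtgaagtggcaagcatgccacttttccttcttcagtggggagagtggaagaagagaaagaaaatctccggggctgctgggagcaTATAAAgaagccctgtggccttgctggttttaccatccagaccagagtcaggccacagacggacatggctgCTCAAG
Tlx1: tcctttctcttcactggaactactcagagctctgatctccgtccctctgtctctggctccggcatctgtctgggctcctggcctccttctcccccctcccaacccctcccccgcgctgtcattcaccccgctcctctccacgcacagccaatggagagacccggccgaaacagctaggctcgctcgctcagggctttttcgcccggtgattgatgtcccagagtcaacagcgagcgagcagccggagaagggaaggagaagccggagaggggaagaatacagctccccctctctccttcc
Klf1: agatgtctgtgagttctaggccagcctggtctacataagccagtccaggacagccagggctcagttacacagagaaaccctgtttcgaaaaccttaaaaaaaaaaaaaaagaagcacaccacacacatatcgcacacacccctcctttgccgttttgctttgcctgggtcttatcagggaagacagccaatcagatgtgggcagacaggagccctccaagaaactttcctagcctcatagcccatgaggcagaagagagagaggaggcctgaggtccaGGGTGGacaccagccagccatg
Rhag: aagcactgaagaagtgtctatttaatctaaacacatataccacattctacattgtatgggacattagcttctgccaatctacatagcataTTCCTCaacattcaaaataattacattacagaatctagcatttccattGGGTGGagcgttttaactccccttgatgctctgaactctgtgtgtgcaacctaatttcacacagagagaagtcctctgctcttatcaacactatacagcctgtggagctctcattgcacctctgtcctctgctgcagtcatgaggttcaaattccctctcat

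Sftpb (chr6:72304360-72304659, plus strand) encodes surfactant protein B and held CTCAAG with its first base at −100 and at −15 from the start. Sftpa1 (chr14:41131538-41131837, plus strand), for surfactant protein A, held TATAAA at −30, CTCAAG at −166 and CCACCC at −171 and, on the opposite strand, at −59, and the first CCACCC overlaps the CTCAAG by 1 base. Cxcl15 (chr5:90794284-90794583, plus strand) held TATAAA at −27 and CTCAAG at 44. Tlx1 (chr19:45150465-45150764, plus strand) held none of the motifs. Klf1 (chr8:84901732-84902031, plus strand) held CCACCC on the opposite strand at 28. Rhag (chr17:40810899-40811198, plus strand) held GAGGAA at −160 and CCACCC at −112, both on the opposite strand. The promoters of Sfta2 and Hemgn were also searched and are not shown. Sfta2 held CTCAAG at −155 and CCACCC at −236 and, on the opposite strand, at −34. Hemgn held TATAAA at −80 and AGATAA at 28. Promoters were at hand for 74.2% of lung-high, 72.6% of spleen-high and 75.1% of all tested genes, which is under the 80% set as the least coverage, so a comparison of promoter content between the sets is void.

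Alveolar genes were higher in lung in nearly all cases. Of 12 alveolar type 2 and surfactant genes 10 were higher in lung and 0 in spleen, with a median log2 difference of 10.43. Sftpd, a collectin of the airspace, was at 355 and 355 RPKM in lung and at 0.0641 and 0.00975 in spleen (log2 difference 13.58 ± 0.74). Slc34a2, the phosphate transporter of type 2 cells, was at 244 and 247 in lung and at 0.0103 and 0.0282 in spleen. Sftpb and Sftpa1, whose promoters are printed above, were at 1170 and 1106 and at 1034 and 1042 RPKM in lung and did not exceed 0.223 in spleen. The 2 members that were not called, Napsa and Ctsh (chosen after their values were seen), are proteases that type 2 cells use to process surfactant proteins. Napsa was at 72.3 and 71.2 RPKM in lung and at 61.0 and 59.3 in spleen, and Ctsh at 73.3 and 73.0 against 61.7 and 61.5. All 12 alveolar type 1 genes were higher in lung, with a median of 6.09. Ager, the receptor for advanced glycation end products, was at 1133 and 1089 RPKM in lung and at 1.83 and 1.84 in spleen (log2 difference 9.16 ± 0.94). Hopx and Cav1, a homeodomain protein and the scaffold of caveolae, were at 475 and 471 and at 465 and 470 in lung and at 11.7 and 10.2 and 12.2 and 11.2 in spleen, and differed by 5.40 and 5.28.

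Among airway genes, all 10 of the club and secretory list were higher in lung, with a median of 11.85. Cbr2, a carbonyl reductase of club cells, was at 2600 and 2519 RPKM in lung and at 2.61 and 2.23 in spleen. Scgb3a2, a secretoglobin, was at 1516 and 1552 in lung and at 0.117 and 0.134 in spleen. Cyp2f2, the cytochrome that activates naphthalene in club cells, was at 1221 and 1202 in lung and at 0.191 and 0.221 in spleen. The libraries of each organ lay close together in all of them. Of 12 ciliated cell genes 11 were higher in lung (median 8.74). Foxj1, the factor that sets the programme of motile cilia, was at 53.9 and 50.2 RPKM in lung and at 0.285 and 0.252 in spleen, and Sec14l3, a lipid-binding protein of airway epithelium, at 613 and 614 against 0.0928 and 0.0466. Genes of basal and squamous epithelium were low. Of 6 tested 3 were higher in lung, and Krt15 and Krt5, keratins of basal cells, were at 10.4 and 9.90 and at 2.60 and 2.51 RPKM in lung with no read in spleen (at least 731-fold and 229-fold higher).

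Of 16 genes for channels, transporters and junction proteins of epithelium 15 were higher in lung (median 7.16). Aqp5, the water channel of type 1 and gland cells, was at 131 and 126 RPKM in lung and at 0.0199 and 0.0272 in spleen. Aqp1, the water channel of endothelium and red cells, was at 449 and 443 in lung but also at 43.4 and 42.5 in spleen, a log2 difference of 3.31 ± 0.55. Scnn1a, a subunit of the epithelial sodium channel, and Cdh1 (E-cadherin) differed by 7.42 ± 0.74 and 7.33 ± 0.77. Xenobiotic metabolism also lay toward lung, with 16 of 18 genes (median 4.99). Fmo2, a monooxygenase of lung, was at 160 and 164 RPKM in lung and at 1.37 and 1.09 in spleen, and Ces1d, a carboxylesterase, at 264 and 269 against 0.676 and 0.308. Gstm1, a glutathione transferase, was at 294 and 289 against 18.0 and 17.7, and close copies in its family may share reads with it.

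Both organs are vascular, and the genes of the endothelial list were called higher in lung without exception, 16 of 16 with a median of 3.46. The list also holds genes of lung endothelium, among them Tmem100 and Car4. Plvap, the diaphragm protein of fenestrated capillaries, was the one closest to equal, at 213 and 210 RPKM in lung and 85.2 and 81.6 in spleen (log2 difference 1.28 ± 0.37, adjusted p = 0.0404), and it no longer passed without the filter on low counts. Pecam1, the junction protein CD31, was at 140 and 140 in lung and at 35.0 and 35.6 in spleen. Tmem100, a membrane protein of lung endothelium, was at 340 and 348 against 0.760 and 0.600 (8.98 ± 0.47). At the other end from Plvap lay Car4, a carbonic anhydrase of lung capillaries, at 70.4 and 70.7 against 0.0394 and 0.0120 (11.60 ± 0.66). Of 21 vasoactive genes 17 were higher in lung and 1 in spleen (median 2.89). Ace, which makes angiotensin II, was at 159 and 157 RPKM in lung and at 3.36 and 3.41 in spleen, and Acvrl1 and Eng, receptors of the BMP9 pathway, at 130 and 124 and at 148 and 142 in lung against 8.6 and 8.38 and 24.9 and 23.5. The member higher in spleen was Agtr1a, the receptor of angiotensin II, at 3.18 and 3.07 in lung and 8.25 and 7.75 in spleen (log2 difference −1.42 ± 0.41), and it no longer passed with DESeq2, with DESeq2 size factors or with plain library size.

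Connective tissue divided less sharply. Of 16 fibroblast and matrix genes 10 were higher in lung (median 2.10), led by Inmt, a methyltransferase abundant in lung, at 621 and 593 RPKM against 0.194 and 0.295. Bgn (biglycan) was at 148 and 143 in lung and at 79.7 and 76.6 in spleen and did not pass. Of 10 smooth muscle and pericyte genes 4 passed, all higher in lung (median 1.35). Acta2, the actin of smooth muscle, was at 92.3 and 88.5 RPKM in lung and 34.1 and 32.9 in spleen with an adjusted p of 0.0504, and Des (desmin) at 26.5 and 25.2 against 21.1 and 20.4. By their medians the 2 cell classes thus stood between the epithelium and all tested genes. Of the 6 mesothelial genes 5 were higher in lung, among them Msln (mesothelin) at 38.9 and 39.5 RPKM against 1.96 and 2.47, while Wt1, a factor that mesothelium and spleen stroma share, was at 1.18 and 1.32 in lung and 3.07 and 3.12 in spleen and did not pass.

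**Figure D2:**
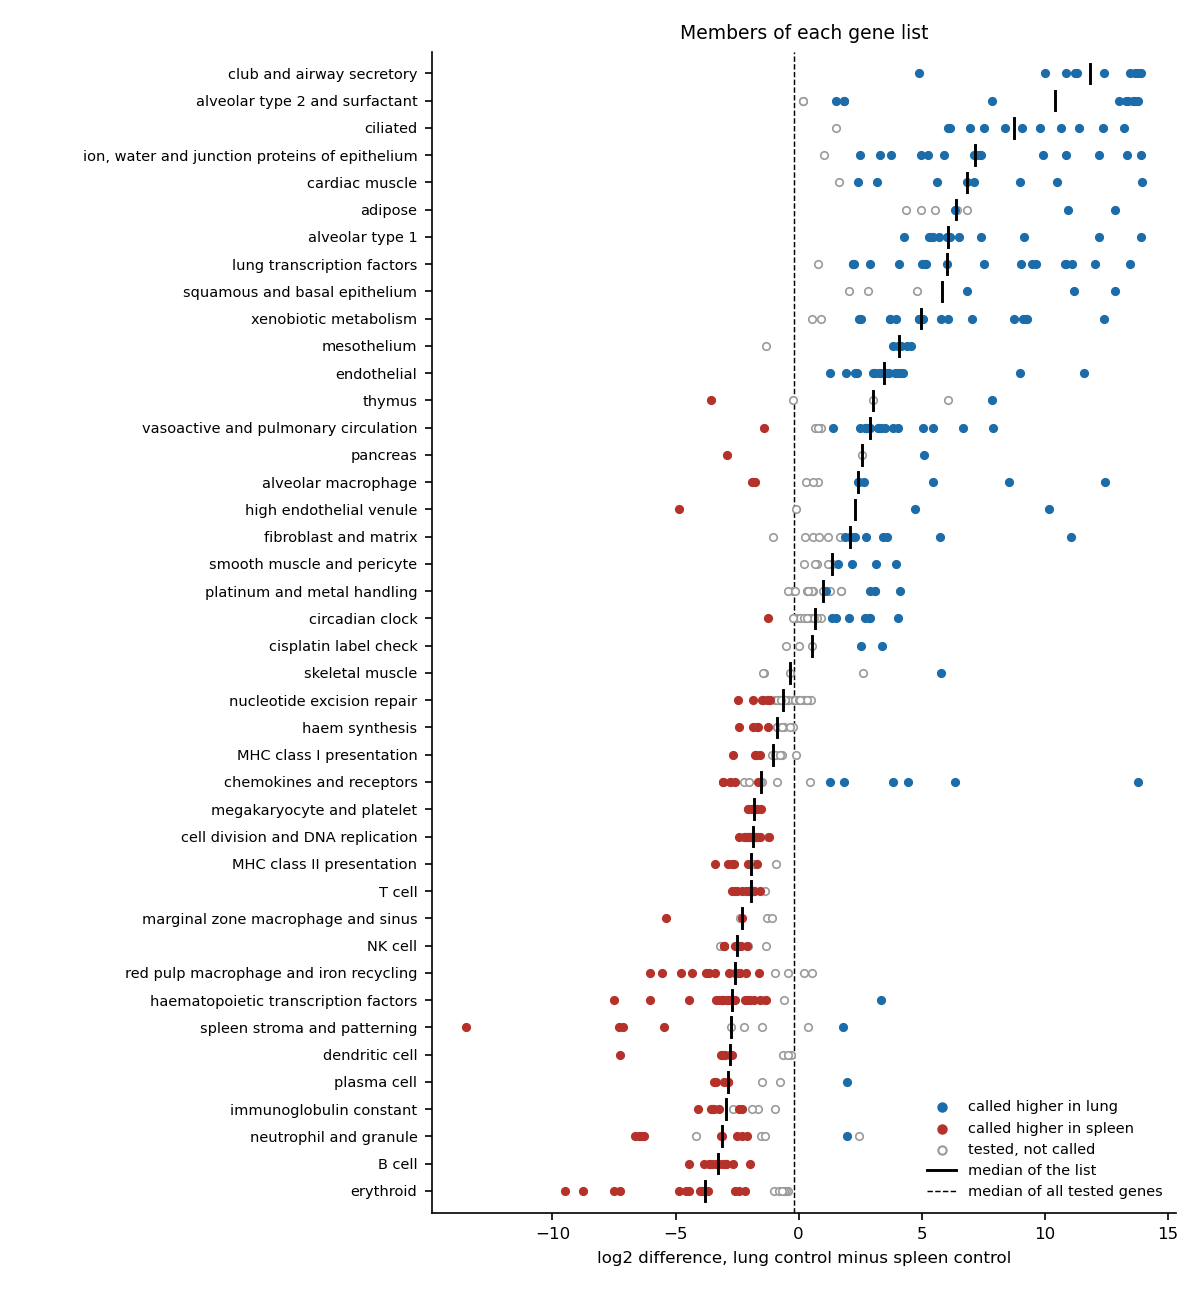
The log2 difference (lung control minus spleen control) of every tested member of the 42 gene lists, one row a list, ordered by the median (black bar); blue and red points were called higher in lung and in spleen, open points were not called, and the dashed line is the median of all tested genes at −0.17. The club and airway secretory and the alveolar type 2 lists lie furthest right (medians 11.85 and 10.43) and the erythroid, B-cell and neutrophil lists furthest left (medians −3.81, −3.28 and −3.11).

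The white pulp was most evident in the genes of B cells, all 14 of which were higher in spleen (median −3.28). Cd79a and Cd79b, the signalling chains of the B-cell receptor, were at 53.2 and 53.6 and at 60 and 59.1 RPKM in lung against 404 and 394 and 438 and 429 in spleen. For Ms4a1 the log2 difference was −3.37 ± 0.45 (adjusted p = 0.000455). Lung held clear levels of all 3, lower by 7.64-fold (Cd79b) to 10.4-fold (Ms4a1). Immunoglobulin constant genes carried the most abundant spleen transcripts. Ighm, the IgM heavy chain, took 3.51% of reads in both spleen controls and was at 18597 and 18591 RPKM there and at 1135 and 1146 in lung, a log2 difference of −4.09 ± 1.38 with an adjusted p of 0.0483. Without the spleen control 2 library its adjusted p was 0.0521, and it also lost the call with DESeq2 size factors. Igkc, the kappa light chain, was at 53772 and 54460 in spleen and 5060 and 5099 in lung and did not pass (adjusted p = 0.0762). Of 12 constant genes 7 passed, all higher in spleen, and reads may be shared among the near-identical copies of these genes. Ighg2b was among them with an adjusted p of 0.046, and of 0.052 without spleen control 2.

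Of 8 plasma cell genes 5 were higher in spleen and 1 in lung. Jchain, which joins IgM and IgA chains, was at 127 and 131 RPKM in lung and at 1241 and 1295 in spleen (log2 difference −3.37 ± 0.94). The gene higher in lung was Sdc1 (CD138), a proteoglycan that epithelial cells carry as well, at 67.0 and 67.4 in lung against 15.9 and 16.7. Mzb1, a chaperone of antibody secretion, passed with a difference of −2.86 ± 0.92, but 57.2% of its exon sequence overlaps another gene.

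T-cell genes differed by less, with 13 of 15 higher in spleen and a median of −1.95. Cd3d, a chain of the T-cell receptor complex, was at 11.8 and 9.73 RPKM in lung and at 36.2 and 38.5 in spleen, and Ccr7, the receptor that guides T cells into lymphoid zones, at 8.44 and 10.3 against 58.3 and 55.5. Cd8b1 was at 16.1 and 16.1 in lung and 41.7 and 39.2 in spleen and did not pass (adjusted p = 0.103). In NK-cell genes 7 of 10 passed (median −2.52). Klrd1 (CD94) was at 4.09 and 3.86 against 30.7 and 30.8. Gzma (granzyme A) was the nearest to equal in the list, at 15.4 and 15.9 in lung and 38.0 and 37.3 in spleen. Ncr1, the receptor NKp46, had an adjusted p of 0.0429, and of 0.0566 without spleen control 2. Dendritic cell genes passed in 6 of 9 members (median −2.78), with Xcr1, the receptor of cross-presenting cells, at 1.20 and 1.37 RPKM in lung and 9.05 and 8.48 in spleen.

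Antigen presentation was high in both organs. Of 10 MHC class II genes 6 were higher in spleen (median −1.95). H2-Ob, an inhibitory subunit of peptide loading in B cells, was at 7.61 and 7.20 RPKM in lung and 73.1 and 73.6 in spleen, a log2 difference of −3.40 ± 0.31. Cd74, the invariant chain, was at 1022 and 1025 in lung and 3529 and 3458 in spleen, and H2-Ab1 at 188 and 182 against 654 and 622, and neither passed (adjusted p = 0.111 and 0.0786). Among 10 class I genes 4 passed (median −1.02), and B2m, the light chain of class I, was at 1995 and 2054 in lung and 3661 and 3752 in spleen (adjusted p = 0.283). Reads may be shared among near-identical MHC genes.

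Chemokines and their receptors went both ways, 6 of 18 higher in lung and 5 in spleen. Beside Cxcl15, Ccl17 was at 17.4 and 15.6 RPKM in lung and 0.452 and 0.802 in spleen, Cxcl14 at 32.5 and 31.4 against 0.339 and 0.374, and Ccl6, a myeloid chemokine, at 84.7 and 86.2 against 22.3 and 23.1. Toward spleen lay Cxcr5, the receptor of B cells for follicles, at 7.67 and 6.51 in lung and 55.2 and 54.7 in spleen, and Cxcr4 at 23.2 and 23.2 against 70.1 and 68.3. Cxcl13, the ligand of Cxcr5 made by follicle stroma, was at 34.5 and 35.9 in lung and 224 and 232 in spleen and did not pass (log2 difference −2.76 ± 1.17, adjusted p = 0.104). Ccl17, Cxcl14 and Cxcr5 were picked here after their values were seen, whereas the others followed the naming rule.

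The red pulp was marked by macrophage and iron genes, of which 13 of 17 were higher in spleen and 0 in lung (median −2.57). Spic, the transcription factor of red pulp macrophages, was at 0.433 and 0.558 RPKM in lung and at 32.2 and 32.7 in spleen (log2 difference −6.02 ± 0.74). Hmox1, the haem oxygenase that opens the haem ring, was at 28.0 and 28.2 against 367 and 361. Complement C1qa was at 55.5 and 52.5 in lung and at 294 and 272 in spleen, where C1qb and C1qc followed the same order. Slc40a1 (ferroportin, the iron exporter, picked after its values were seen) was at 1.59 and 1.79 against 76.6 and 77.6. The ferritin chains did not pass. Fth1 was at 692 and 691 RPKM in lung and 458 and 456 in spleen (log2 difference 0.53 ± 0.73), and Ftl1 at 343 and 329 against 441 and 426. In the marginal zone and sinus list 2 of 5 passed, namely Stab2, a scavenger receptor of sinus endothelium, at 0.248 and 0.420 in lung and 14.8 and 15.2 in spleen, and Siglec1 at 1.55 and 1.69 against 7.84 and 7.62.

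Alveolar macrophage genes did not move as a block, with 6 of 11 higher in lung and 2 in spleen. Chil3 (Ym1), a chitinase-like protein of alveolar macrophages, was at 173 and 175 RPKM in lung and 31.8 and 31.3 in spleen, and Plet1 at 25.4 and 24.4 against 0.0663 and 0.0605. The 2 higher in spleen were Mrc1 (the mannose receptor CD206), at 8.09 and 8.33 against 26.4 and 27.7, and Itgax (CD11c), at 6.89 and 7.88 against 27.8 and 26.7, both of which other macrophages and dendritic cells also make. Under plain library size neither Mrc1 nor Itgax passed. Fabp4, a fatty acid carrier of alveolar macrophages, endothelium and fat cells, was at 224 and 230 in lung and 4.82 and 5.05 in spleen. After cisplatin Fabp4 was at 41.3 and 12.4 RPKM in lung and at 29.6 and 6.13 in spleen.

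Red cell genes fell into those that passed and the most abundant ones, which did not. Of 20 erythroid genes 14 were higher in spleen (median −3.81). Slc4a1 (band 3), an anion exchanger of the red cell membrane, was at 1.85 and 1.65 RPKM in lung against 39.0 and 38.2 in spleen. The globins were abundant in both organs and did not pass. Hbb-bs was at 7724 and 7395 RPKM in lung and at 9704 and 9330 in spleen (log2 difference −0.41 ± 1.17), Hba-a1 at 1854 and 1728 against 2540 and 2350, and Alas2, the first enzyme of haem synthesis in red cells, at 108 and 103 against 152 and 150 (−0.60 ± 0.74). Reads of the paired globin copies may be shared. Of 11 haem synthesis genes 5 were higher in spleen (median −0.88), with Cpox, a mitochondrial enzyme of the pathway, at 4.99 and 4.86 against 14.8 and 15.3.

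Platelet and neutrophil genes also lay toward spleen. Of 8 megakaryocyte and platelet genes 6 passed (median −1.80), with Ppbp, a platelet chemokine, at 45.1 and 46.8 RPKM in lung and 184 and 186 in spleen. Of 15 neutrophil genes 10 were higher in spleen and 1 in lung (median −3.11). Ngp and Camp, granule proteins of immature neutrophils, were at 1.36 and 1.30 and at 0.906 and 0.548 in lung against 105 and 104 and 50.9 and 46.0 in spleen. S100a8 and S100a9, which mature neutrophils keep, were nearer, at 25.4 and 26.5 and 42.0 and 44.6 in lung against 211 and 224 and 360 and 362. The gene higher in lung was Ltf (lactoferrin), which airway glands also secrete, at 77.9 and 76.4 against 18.0 and 18.8, and Lcn2 (lipocalin 2) was at 75.5 and 71.4 against 13.1 and 12.6 without passing (adjusted p = 0.321). Cell division genes were higher in spleen in 15 of 18 cases (median −1.85), with Mki67 at 5.98 and 6.28 RPKM in lung and 31.8 and 32.1 in spleen and Rrm2, a subunit of ribonucleotide reductase, at 7.98 and 7.47 against 33.4 and 33.4.

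Transcription factors split along the same line. Of 19 lung factors 18 were higher in lung and 0 in spleen (median 6.02). Nkx2-1, which specifies lung epithelium, was at 53.1 and 53.5 RPKM in lung and at 0 and 0.0166 in spleen (log2 difference 12.03 ± 0.82). Foxa1 and Foxa2, forkhead factors of endoderm, were at 20.7 and 20.4 and at 22.7 and 23.0 in lung and did not exceed 0.0436 in spleen. Among factors of lung mesenchyme, Tbx5 was at 6.08 and 5.74 with no read in spleen (at least 1122-fold higher), Tbx4 at 14.8 and 14.9 against 0.0456 and 0.00693, and Foxf1 at 84.3 and 82.1 against 1.31 and 1.17. Sox9 was low in both organs, at 0.900 and 0.622 in lung and 0.418 and 0.370 in spleen, and was the member that did not pass. Gata6 (2.89 ± 0.61) and Sox17 (2.21 ± 0.66) passed with smaller differences, and Sox17 lost its call under plain library size.

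Of 25 haematopoietic factors 21 were higher in spleen and 1 in lung (median −2.72). Pax5 and Ebf1, which fix B-cell identity, were at 5.21 and 5.42 and at 4.38 and 4.33 RPKM in lung against 47.7 and 48.5 and 16.4 and 16.3 in spleen. Gata1, the factor of red cells and megakaryocytes, was at 0.415 and 0.453 against 9.97 and 9.12, and Spi1 (PU.1), the factor of myeloid cells, at 11.4 and 10.4 against 43.7 and 43.8. Ikzf1 (Ikaros) was at 12.0 and 12.7 in lung and at 90.7 and 90.2 in spleen. The exception was Gata2, a factor of progenitors and mast cells that endothelium also uses, at 25.0 and 25.2 in lung and 2.39 and 2.30 in spleen (log2 difference 3.36 ± 0.42). Tal1, Nfe2 and Bcl6 did not pass. Ebf1, Lef1, Tcf7 and Lmo2 lost their calls under DESeq2 and with its size factors.

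Spleen patterning genes were few and low. Of 9 stroma and patterning genes tested, out of 11 in the list, 4 were higher in spleen and 1 in lung (median −2.76). Beside Tlx1 and Nkx2-3, these were Nkx2-5, at 0.0841 and 0.0755 RPKM in lung and 3.17 and 3.46 in spleen, and Nkx3-2, with 0 and 2 reads in lung and 116 and 277 in spleen, a ratio of 166 with an exact 95% interval of 45.8 to 1379. Nr2f2, a nuclear receptor of stroma and veins, was at 11.1 and 11.4 in lung and 8.25 and 8.10 in spleen and did not pass. Under DESeq2 Nkx2-3 and Nkx2-5 lost their calls. Ccl21a had no read in any of the 4 libraries.

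By their medians, the lists bearing on the drug itself differed less between the untreated organs than most lists above. These medians are signed and do not measure how many members differ. Their calls are to be read beside all tested genes, of which 18.4% were higher in lung and 12.1% in spleen. Of 31 nucleotide excision repair genes, whose products cut out cisplatin adducts, 6 were higher in spleen and 0 in lung, and the median of −0.63 compares with −0.17 over all genes. The 6 were Ddb2 and Gtf2h2, for damage recognition and for the opening helicase complex, and Rpa2, Lig1, Pold1 and Pole, which also serve DNA replication. Ddb2 was at 1.45 and 1.03 RPKM in lung and 6.37 and 5.79 in spleen, and Lig1 at 6.50 and 7.06 against 18.8 and 17.8. Xpc, the sensor of helix distortion (9.21 and 9.07 in lung, 6.4 and 6.30 in spleen), Xpa (5.97 and 7.20 against 9.57 and 10.1) and Ercc1 (4.92 and 4.95 against 4.09 and 4.72) did not pass. These were named after their values were seen, as members of a fixed list.

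Of 17 genes for platinum and metal handling 4 were higher in lung and 0 in spleen (median 0.98). Over all tested genes 18.4% were higher in lung and 12.1% in spleen. Slc31a1 (Ctr1), the copper importer through which cisplatin can enter cells, was at 20.9 and 21.8 RPKM in lung and 9.53 and 9.55 in spleen (log2 difference 1.11 ± 0.28), and lost its call without the filter on low counts. The copper exporter Atp7b was at 6.79 and 6.78 against 0.806 and 0.879, and Slc22a2 and Slc47a1, low in both, were the remaining calls. Gclc, the first enzyme of glutathione synthesis, was at 60.6 and 62.3 in lung and 18.4 and 17.8 in spleen (adjusted p = 0.0777). Of 18 clock genes 7 were higher in lung and 1 in spleen (median 0.68). Nr1d1 (REV-ERB alpha) was at 29.4 and 28.9 RPKM in lung and 3.9 and 3.71 in spleen, and Cry2 at 8.96 and 8.81 against 1.91 and 2.12, whereas Nr1d2 was at 14.5 and 15.2 against 11.4 and 12.5 and did not pass. Bhlhe41, a repressor, was higher in spleen, at 3.04 and 3.29 in lung and 7.24 and 7.44 in spleen. A single hour was sampled, so that level and phase cannot be told apart.

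The same organ comparison was made in the cisplatin libraries, 2 of lung and 2 of spleen, whose members did differ beyond read sampling. There 4805 of 16581 tested genes were higher in lung (29%) and 4136 in spleen (24.9%). Of the lung-high control genes 2804 were called in the same direction, 94.1% of the control calls and 58.4% of the cisplatin calls, and of the spleen-high control genes 1824, 93.2% and 44.1%. Median differences of the control calls were 3.41 and −2.35 in control and 3.31 and −2.47 after cisplatin. Across the 16025 genes tested in both, Pearson's r of the log2 differences was 0.925, a description over genes that are not independent and share their libraries. The median of alveolar type 2 genes was 10.43 in control and 9.61 after cisplatin and that of alveolar type 1 genes 6.09 and 5.88, while those of B and T cells stood further toward spleen after cisplatin (−3.28 and −5.11, −1.95 and −3.85). The change between treatments in these medians was not tested.

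**Figure D3:**
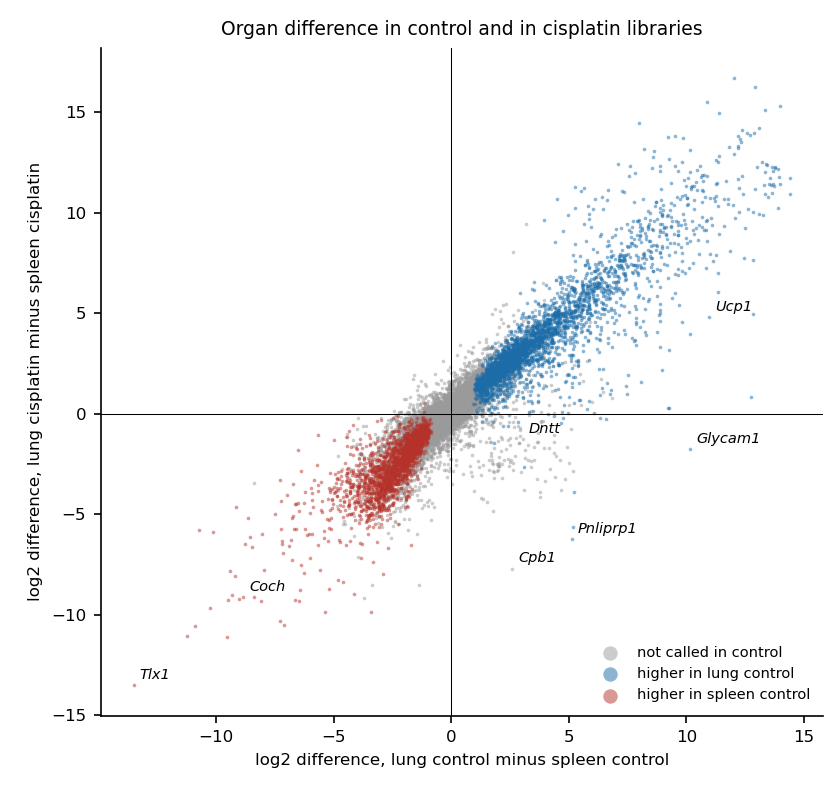
The log2 difference lung minus spleen of each gene in the control libraries (horizontal) and in the cisplatin libraries (vertical), with genes called in control in blue (lung) and red (spleen) and the others in grey. Most genes lie along the diagonal (Pearson's r 0.925 over 16025 genes), Tlx1 sits at −13.52 and −13.50, and Pnliprp1 and Cpb1 lie at 5.11 and 2.59 in control and at −6.24 and −7.71 after cisplatin.

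Some lists stood apart between the libraries of an organ, and several of the differences above move with them. The summed B-cell list was at 630 and 643 CPM in the lung controls and at 186 and 134 in lung after cisplatin, against 5494 to 5995 in the 4 spleen libraries. In lung the T-cell list was at 387 and 396 CPM in control and at 136 and 121 after cisplatin. High endothelial venule genes summed to 173 and 177 CPM in the lung controls, 22.6 and 21.2 in the spleen controls and 14.9 and 10.1 in lung after cisplatin. Each of these lists was higher in both lung controls than in either treated lung. Most of the venule sum in the lung controls came from Glycam1. Chst4, another member, was at 6.48 and 6.71 RPKM in the lung controls and 0.215 and 0.253 in the spleen controls. In lung after cisplatin Chst4 stayed at 5.87 and 4.12. Fut7 was at 0.921 and 0.893 in the lung controls and 0.801 and 0.961 in the spleen controls. Glycam1, a mucin-like ligand made by high endothelial venules of lymph nodes, was at 72.8 and 74.7 RPKM in the lung controls, at 0.0969 and 0.0442 in the spleen controls and at 0.164 and 0.0405 in lung after cisplatin. It was called in control (log2 difference 10.16 ± 2.37) and not after cisplatin (−1.76 ± 1.38). Of 4 venule genes tested 2 were higher in lung and 1 in spleen. The latter was Madcam1, an addressin that the marginal sinus of the spleen also carries, at 0.604 and 0.434 RPKM in lung and 13.96 and 12.74 in spleen.

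Genes of immature T cells followed. Rag1, a recombinase of lymphocyte development, was at 6.65 and 7.38 RPKM in the lung controls and at 0.0156 and 0.0357 in the spleen controls, and at 0.208 and 0.648 in lung after cisplatin. Dntt, the terminal transferase of thymocytes, was at 6.64 and 7.26 against 0.890 and 0.787 in control and did not pass. Prss16, of the thymus cortex, was at 0.242 and 0.338 in lung and 0.346 and 0.355 in spleen, and Aire, of the thymus medulla, was higher in spleen with an adjusted p of 0.0346, and of 0.102 without lung control 2. The thymus list passed in 1 of 5 tested genes in each direction and summed to 62.5 and 69.5 CPM in the lung controls and 6.41 and 5.68 in the spleen controls.

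Fat genes were another such set. The adipose list summed to 1126 and 1102 CPM in the lung controls, 10.1 and 9.43 in the spleen controls, 189 and 73.0 in lung after cisplatin and 131 and 9.13 in spleen after cisplatin. Ucp1, the uncoupling protein of brown fat, was at 192 and 185 RPKM in the lung controls, 0.221 and 0.0288 in the spleen controls and 11.4 and 0.332 in lung after cisplatin. Cidea, a lipid droplet protein of brown fat, was at 130 and 128 in the lung controls with 1 read in each spleen control. Of 8 adipose genes 3 passed, all higher in lung (median 6.39), and Adipoq (adiponectin) did not, at 92.3 and 93.4 against 2.13 and 1.83. Scd1, a fatty acid desaturase that fat and lung epithelium make, was among the most abundant lung-high genes, at 1474 and 1508 RPKM against 102 and 102. Its adjusted p was 0.0478, and 0.051 without lung control 2, and it lost the call with DESeq2 size factors.

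Heart muscle genes were higher in lung in 8 of 9 cases (median 6.85) and summed to 218 and 217 CPM in the lung controls, 16.8 and 15.2 in the spleen controls and 476 and 327 in lung after cisplatin. Myh6, the myosin of heart atria, was at 5.88 and 5.66 RPKM in lung with no read in spleen (at least 1583-fold higher), and Actc1 (cardiac actin) at 33.2 and 32.2 against 0.0639 and 0.0583. Skeletal muscle genes were low, with Ckm as the only call of 5, at 0.869 and 1.04 against 0.0177 and 0.0162 and an adjusted p of 0.0327, or 0.0516 without spleen control 2. The part of attached or neighbouring tissue in any of these differences was not tested.

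Pancreas genes stood apart only in the spleen libraries of treated mice, among the groups compared here. Their sum was 4.34 and 4.19 CPM in the lung controls, 16.5 and 15.1 in the spleen controls, 4.96 and 4.91 in lung after cisplatin and 2950 and 2315 in spleen after cisplatin. After cisplatin all 14 were higher in spleen, and in control 3 could be tested, with 1 called in each direction. Cela1, an elastase, was at 0.878 and 0.901 RPKM in the lung controls and 6.82 and 6.24 in the spleen controls, and Pnliprp1, a lipase-related protein, at 0.325 and 0.292 against 0 and 0.0106.

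**Figure D4:**
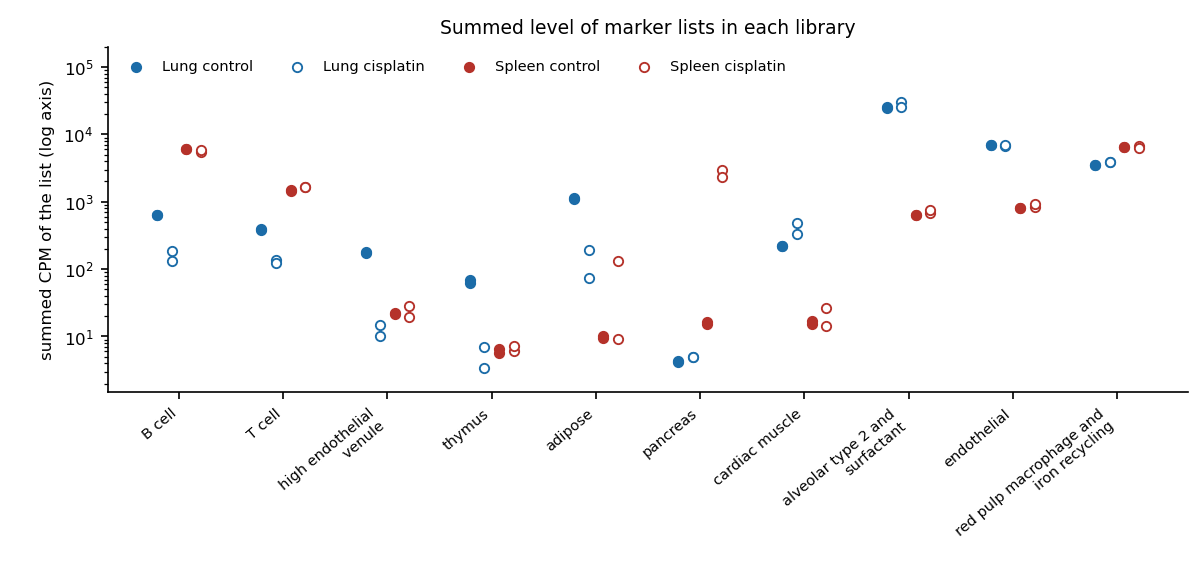
Summed CPM (log axis) of 10 marker lists in each of the 8 libraries, with blue for lung, red for spleen, filled for control and open for cisplatin. The adipose list falls from 1126 and 1102 CPM in the lung controls to 189 and 73.0 after cisplatin, the pancreas list reaches 2950 and 2315 CPM in the treated spleens, and the surfactant list stays within 24713 to 30306 CPM in the 4 lung libraries.

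XR-seq captures the short fragments that excision repair releases, here from cisplatin-treated mice, and so gives a measure of repair taken on other libraries than the RNA of the controls. On the transcribed strand 1855 of 18786 genes passed the same test as higher in lung (9.87%) and 2253 as higher in spleen (12%). Of 2851 lung-high RNA genes with a value, 1199 were higher in lung in XR-seq (42.1%) and 108 in spleen (3.79%), with a median log2 difference of 0.85 (quartiles 0.06 and 1.70). Of 1797 spleen-high genes 836 were higher in spleen (46.5%) and 17 in lung (0.946%), with a median of −1.11 (quartiles −2.81 and −0.11). Over all genes the median was 0.01. On reads summed per organ, the lung-high genes had a median of 0.72 on the transcribed and 0.48 on the other strand, and the spleen-high genes of −0.88 and −0.58.

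The median difference in repair reads rose with the RNA difference from bin to bin. In the outer bins it was larger in size toward spleen than toward lung, but not in the innermost pair. In 71 genes with RNA more than 32-fold higher in spleen the median XR-seq difference was −3.37, and in 811 genes as far toward lung it was 1.34. Between these, the medians were −2.12, −0.05, 0.04, 0.16 and 0.87 over RNA differences of −5 to −2, −2 to −0.4, −0.4 to 0.4, 0.4 to 2 and 2 to 5. Whether these sizes differ beyond their error was not tested.

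B-cell genes were concordant, with all 14 higher in spleen in XR-seq (median −4.46), among them Ms4a1 at −5.59 ± 0.57. Tlx1 was at −6.76 ± 0.70. Of 16 endothelial genes 13 were higher in lung (median 2.23). Of 11 alveolar type 2 and surfactant genes that could be tested 2 were higher in lung and 2 in spleen, and the median was −0.20 against 10.43 in RNA. The 2 higher in spleen were Napsa (−2.54 ± 0.27) and Ctsh (−1.81 ± 0.19), the members not called in RNA. Sftpc and Slc34a2 were higher in lung by 8.23 and 3.19, whereas Sftpb, at 0.80 ± 0.97, did not pass (adjusted p = 0.853). Hmox1 and Tcf7, both higher in spleen in RNA, had more XR-seq reads in lung, by 1.21 ± 0.21 and 1.53 ± 0.09. Reads on a gene also depend on its span, which is the same in both organs but bears on how many reads it has. The part of span in which genes passed was not tested. Median gene span was 28535 bases in lung-high, 18438 in spleen-high and 22233 in all tested genes.

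**Figure D5:**
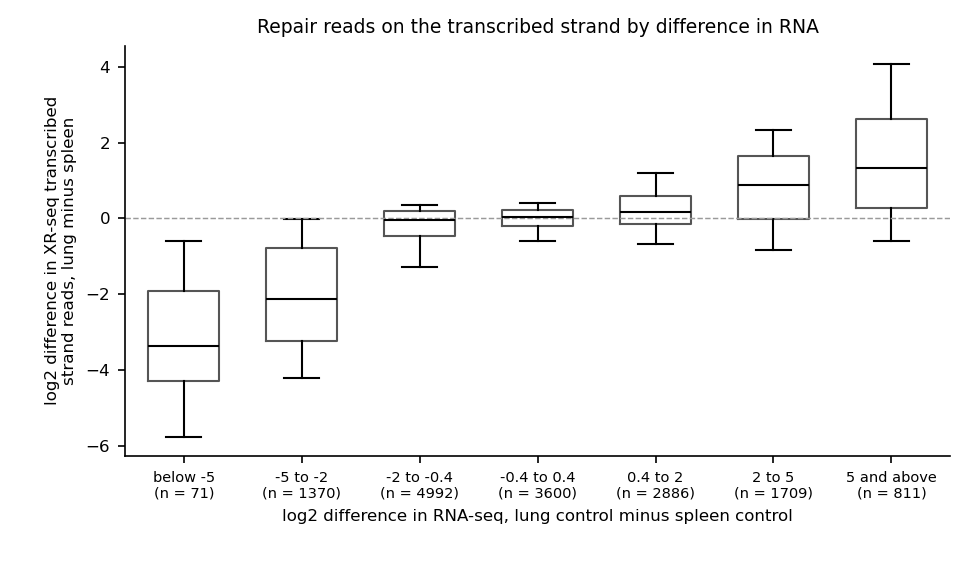
XR-seq transcribed strand log2 difference (lung minus spleen, cisplatin-treated mice) for genes binned by their RNA-seq log2 difference between lung control and spleen control; boxes show quartiles and median, whiskers the range from percentile 10 to 90. Medians go from −3.37 in the bin furthest toward spleen (71 genes) through 0.04 to 1.34 in the bin furthest toward lung (811 genes).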

How the data were processed

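Bulk RNA-seq of lung and spleen controls was compared, with cisplatin RNA-seq and cisplatin XR-seq of the same organs beside it. The authors made poly-A libraries with a kit that keeps no strand, sequenced them as 50-bp pairs, aligned reads with STAR to mm10 and deposited raw read counts per gene from featureCounts. For XR-seq, the authors used cutadapt, BWA and Picard and deposited counts per gene and strand. Tool versions are not given in the sources used here.

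Genes at 0.5 CPM or more in the summed lung or spleen control were tested (for cisplatin RNA-seq and XR-seq, in any library), and edgeR 4.0.16 in R 4.3.3 (TMM scaling, glmQLFit, glmTreat beyond a log2 difference of 0.4, Benjamini-Hochberg adjusted p under 0.05) was fitted to 14 RNA-seq samples in 8 groups with 6 residual degrees of freedom. The lung and spleen control pairs, with a dispersion index of 3 or less, were summed to 1 sample each, which leaves no replicate within either control group. P-values therefore rest on the spread of the other groups. Where nothing ties samples to separate animals, that spread may be technical. Cisplatin RNA-seq and XR-seq (2 libraries against 2) were fitted in the same way. RPKM used exon lengths of GENCODE M21 on GRCm38, and 25041 of 25059 genes had a position. In each XR-seq file 1 row without a gene name was dropped. Each test was tried on simulated counts. Among genes given a log2 difference of 1, 2, 3 and 4, the control test called 2%, 26%, 64% and 90%. For cisplatin these were 22%, 72%, 92% and 98%, and for XR-seq 48%, 76%, 82% and 92%. False calls numbered 8 for control, 20 for cisplatin and 1 for XR-seq.

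The members and the 42 gene lists (524 genes, 7 not found) were chosen with earlier results of these data known. Named genes were the 12 protein-coding genes per direction with the largest difference at 10 RPKM or more and the same call after cisplatin, the 6 most abundant calls per direction, up to 6 most abundant members of each list, called members that go against their list, and all transcription factors, stroma and label check genes. Alternatives were DESeq2 1.42.0, its size factors, plain library size, no filter and tests against 0 and 1. Others were libraries as replicates, lung and spleen only, a replicate block and leaving out each library of the groups compared. Intervals and lower bounds cover counting error only. A few members of the lists are counted but not reported here by name.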

Additional observations from a re-analysis of the deposited data

Results flagged for a closer look

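Each gene below has its lung and spleen libraries in one order in control and in the opposite order after cisplatin, with no overlap, or was called in opposite directions. The difference between the treatments was not tested, and all values are log2 differences, lung minus spleen. With many genes looked at, some such crossings are to be met by chance.

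Exocrine pancreas genes crossed furthest. Cpb1 (a carboxypeptidase) was at 2.59 in control and −7.71 after cisplatin, Pnliprp1 (a lipase-related protein) at 5.11 and −6.24, and Spink1 (a trypsin inhibitor) at 5.18 and −5.65. Dmbt1, a mucosal glycoprotein that gut and pancreas ducts also make, was at 5.20 and −3.92. Reg1, a secreted pancreas protein, was too low for the control test and was at −5.99 after cisplatin, with 0.640 and 0.316 RPKM in the lung controls and no read in the spleen controls. Apart from Spink1, these were low in control. Cpb1, for example, was at 0.220 and 0.202 RPKM in lung and 0.0157 and 0.0395 in spleen, whereas the treated spleens held 67.6 and 54.9. Spink1 was at 5.405 and 5.112 in the lung controls and at 0.505 and 0.07608 in the treated lungs. In the spleen controls Spink1 was at 0.4251 and 0, and in the treated spleens at 10.44 and 16.15. The pancreas list summed to 2950 and 2315 CPM in those spleens and to 16.5 and 15.1 in the spleen controls, and its part in these values was not tested.

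Dntt, the terminal transferase of thymocytes, was at 3.04 and −1.26, and the summed thymus list stood at 62.5 and 69.5 CPM in the lung controls and 3.45 and 6.87 in the treated lungs. Ntrk3, a neurotrophin receptor, was at 1.82 and −1.47. Tal1, a factor of blood progenitors and endothelium, was at −1.42 and 0.94. Sox9, a factor of epithelial progenitors and cartilage, was at 0.78 and −0.55. Mdm2, which limits p53, was at −0.50 and 0.34, and Rad23b, a partner of the damage sensor Xpc, at −0.14 and 0.20. Dntt, Sox9, Mdm2 and Rad23b passed the test in neither treatment, and Cpb1 and Tal1 passed after cisplatin but not in control (adjusted p = 0.11 and 0.0549).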

How the results depend on the processing

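None of the 205 named genes called in the control comparison changed direction under its alternatives. The control comparison gave 5736 genes higher in lung and 5542 in spleen when fitted to its 4 control libraries with the replicate block, and 5753 and 5546 without it, since each near-identical library then counts as a replicate and little spread remains. With each library as a replicate in the full fit 4335 genes were higher in spleen, and with lung and spleen samples only 3021. Against a log2 difference of 1 the spleen count was 1018, by construction lower, and under DESeq2 it was 1259, with 1197 also called after cisplatin; the cause was not tested. Leaving out 1 library gave 2892 to 3019 genes higher in lung and 1750 to 1971 in spleen for control, 4029 to 4639 and 3117 to 3949 for cisplatin, and 1510 to 2294 and 1971 to 2218 for XR-seq. Of those calls DESeq2 lost 26, its size factors 16, plain library size 14 and a test against 1 lost 37. The labels tie same-numbered lung and spleen libraries by that number alone. Deviations of same-numbered libraries correlated at 0.107 in control, 0.349 after cisplatin and 0.074 in XR-seq. Whether such libraries share an animal or a batch was not tested. The replicate block, left out of the main fits, gave 5032 and 4450 calls after cisplatin and 1972 and 2309 in XR-seq. For control, a library was left out while its near-identical partner stayed, so the control ranges above could move little. The libraries of other groups, which gave the spread, were not left out there. With 1 summed sample per control group, differences near the threshold depend on the borrowed spread.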
